A study of Mus musculus with 2 samples.

Results

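The genes that cut, protect and crosslink the extracellular matrix were examined in mouse gastrocnemius, a fast muscle at the back of the lower leg. Members were the protein-coding genes of the GENCODE M21 annotation (GRCm38) whose symbols are Mmp, Adamts, Adamtsl, Timp, Loxl or Plod with a number, or Lox. This rule took 58 of the 34745 genes in the count table, namely 22 matrix metalloproteinases, 19 ADAMTS proteases, 5 ADAMTS-like proteins, 4 tissue inhibitors of metalloproteinases, 5 lysyl oxidases and 3 lysyl hydroxylases. RNA-seq had been done on 2 libraries from C57BL/6 mice aged 8 weeks, 1 of genotype Cry2flox/flox (called Cry2flox) and 1 of genotype Cry2scko. The floxed allele of the control carries recombination sites around part of Cry2, which encodes a repressor of the circadian clock. The labels do not spell out scko and name no recombinase or promoter, no injury, no hour of collection and no number of animals behind a library. Each genotype has 1 library, so spread between animals cannot be estimated, ratios describe this pair of libraries and p-values are not given.

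Matrix metalloproteinases (MMPs) and ADAMTS proteases are zinc enzymes that cut collagens, proteoglycans and other matrix proteins, and tissue inhibitors of metalloproteinases (TIMPs) block their active site. ADAMTS-like proteins share the ancillary domains of the ADAMTS family and lack its catalytic domain. Several of them bind fibrillin microfibrils. Lysyl hydroxylases modify lysines of new collagen chains inside the cell, and lysyl oxidases then oxidise lysines outside it, which gives the crosslinks that stiffen collagen and elastin. In muscle these enzymes act on the endomysium, the basement membrane around each fibre and the connective tissue that joins muscle to tendon.

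The catalytic site itself shows which of the 58 genes encode these zinc proteases. It was sought in frame, as 11 codons with histidine codons at positions 1, 5 and 11 and a glutamate codon at position 2, in the longest complete coding sequence of each gene in GENCODE M21. All 22 MMP genes and all 19 ADAMTS genes held 1 match, and none of the 17 ADAMTS-like, TIMP, lysyl oxidase and lysyl hydroxylase genes did. The sites of the more abundant proteases, and of 3 others whose values are given later, are printed to show how alike they are. Capitals mark the 3 histidine codons and the eighth codon.
Mmp2: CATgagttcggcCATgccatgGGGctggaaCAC
Mmp14: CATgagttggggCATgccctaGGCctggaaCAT
Mmp15: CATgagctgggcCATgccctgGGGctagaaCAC
Mmp12: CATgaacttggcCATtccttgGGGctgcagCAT
Adamts1: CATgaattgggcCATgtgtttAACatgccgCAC
Adamts5: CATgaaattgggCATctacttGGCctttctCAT
Adamts7: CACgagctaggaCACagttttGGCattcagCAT
Adamts8: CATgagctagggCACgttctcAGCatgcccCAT
The eighth codon was a glycine codon (GGN) in 22 of 22 MMP genes and in 13 of 19 ADAMTS genes. It was AAC or AAT, both asparagine codons, in another 5 ADAMTS genes, Adamts1 among them, and AGC in Adamts8. Gene structure separated the families further, because the 33 bases lay within a single exon in all 22 MMP genes and were split by an intron in all 19 ADAMTS genes. In Mmp2 they lay at chr8:92839279-92839311 on the plus strand, from codon 403 of 662, and in Mmp14 at chr14:54437627-54437659, from codon 239 of 582. Mmp9, the other gelatinase, also had its site late, from codon 401, whereas the remaining 20 MMP genes began it between codon 212 (Mmp23) and codon 287 (Mmp25). Gelatinases carry fibronectin type II repeats inside the catalytic domain. In Adamts7 the bases ran from 90179456 to 90180640 on the plus strand of chromosome 9, intron included.

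The total count was 18909433 reads in Cry2flox against 16423884 in Cry2scko. Counts were scaled to library size and given as CPM, a count relative to the scaled library total, on which 1 unit stood for about 18.8 reads in Cry2flox and 16.5 in Cry2scko. Cry2 had 676 and 133 reads, a log2 ratio of -2.16 (95% counting interval -2.44 to -1.89), lower in the library labelled Cry2scko. The 4 muscle fibre markers were abundant in both libraries, with Ckm, muscle creatine kinase, at 298512 and 267532 reads. Of the 8 fibroblast markers all 8 were lower in Cry2scko, with a summed level of 1661 CPM in Cry2flox and 1065 in Cry2scko. Col1a1, Col1a2 and Col3a1 made up most of that sum, and the other 5 markers summed to 427 and 366 CPM, with intervals of Dpt and Pi16 that included equality. The 9 tendon markers summed to 192 and 85.7 CPM. Of the 8 abundant enough to compare 7 were at least 2-fold lower, against 1.51% of all genes by the rule given below. The other, Scx, had a log2 ratio of -0.17 (-0.89 to 0.53). Summed endothelial markers were 385 and 367 CPM, and B cell markers 29.7 and 80.9 CPM. Adipocyte markers summed to 14.0 and 8.46 CPM, satellite cell markers to 25.3 and 14.8 and mural markers to 690 and 626. T cell markers summed to 9.11 and 17.9 CPM and Schwann cell markers to 109 and 110. Macrophage markers did not share a direction, with Lyz2 at 46.7 and 68.4 CPM and the other 6 summed to 51.4 and 46.7 CPM. In whole muscle, fewer cells of a type and less RNA per cell cannot be told apart.

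Most matrix enzyme genes were slightly lower in the Cry2scko library and few were far apart. A mean CPM of 1 or more was asked for a comparison, which 38 of the 58 genes reached. Of these 38, 30 had a ratio below 1 and 8 above it, against 50.5% below 1 among all 12832 genes compared. The log2 ratios of the 38 had a median of -0.30 and quartiles of -0.49 and -0.09, beside a median of -0.00 and quartiles of -0.17 and 0.18 over all genes. A gene was called higher or lower when the ratio was at least 2-fold and its counting interval excluded 1. By that rule 1 of 38 was lower, Adamts7, and 0 were higher, against a background of 1.51% lower and 3.37% higher (4.88% in either direction). The counting interval alone lay below a ratio of 1 in 16 of the 38 and above it in 1, Adamts8, against 17.3% and 16.3% of all genes. The intervals are exact, cover counting error only and take reads as independent molecules, which reads without molecular identifiers are not.

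**Figure D1:**
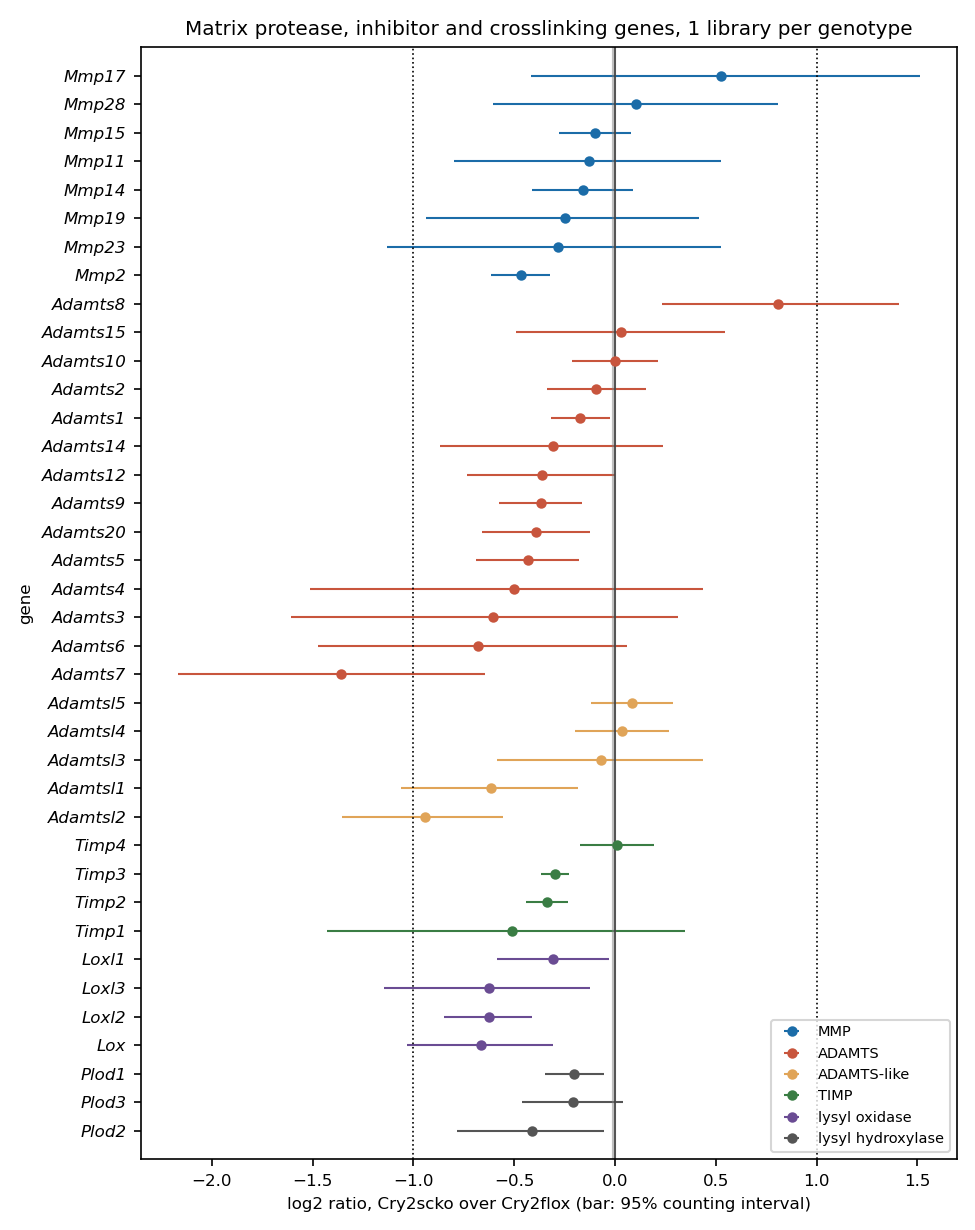
Log2 ratio of Cry2scko over Cry2flox for the 38 genes compared, grouped by family, with 95% counting intervals as bars. Dotted lines mark 2-fold, the solid line marks equality and the grey line the median of all genes. Of the 38 points, 30 lie left of equality and 1, Adamts7, lies past the left dotted line.

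**Figure D2:**
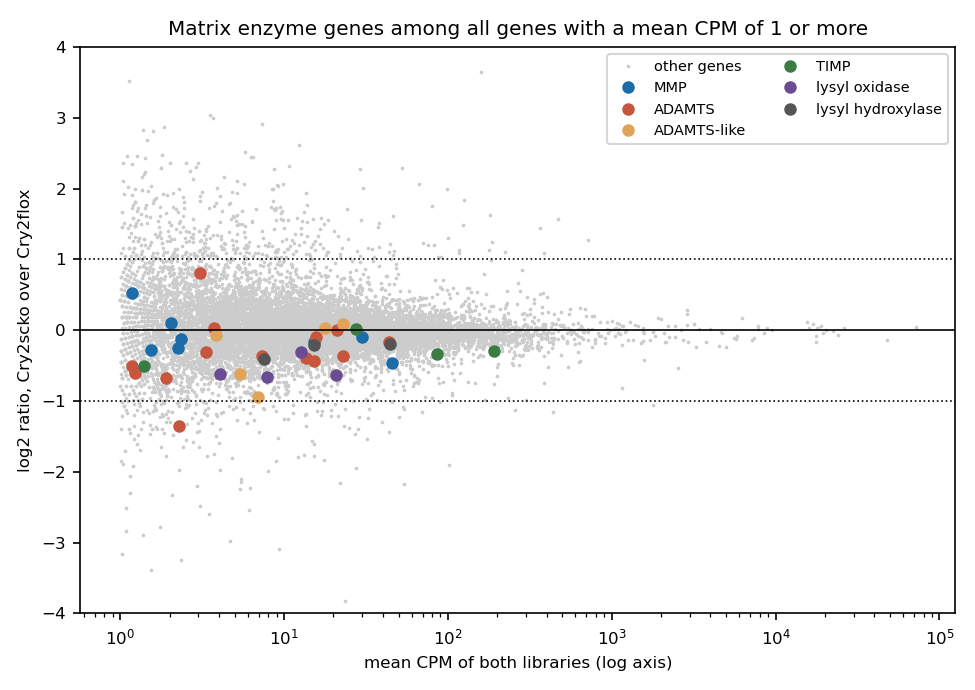
Log2 ratio of Cry2scko over Cry2flox (vertical axis) against mean CPM (log axis) for the 12832 genes compared, with the 38 matrix enzyme genes in colour. Of these 12832 genes, 10 lie beyond the axis limit of 4 and are not drawn. The coloured points lie mostly under 0 and within the dotted 2-fold lines.

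By level per length, inhibitors and a gelatinase stood at the top of the group. The authors' FPKM values (fragments scaled to transcript length and to library size) were used here, since read counts cannot be compared between genes of different length. Timp3 had 23.2 FPKM in Cry2flox and 19.2 in Cry2scko, and Timp2 had 23.2 and 18.6. Mmp2, gelatinase A, came next with 17.4 and 12.7 FPKM. Adamts1, a versican- and aggrecan-cleaving protease, had 7.26 and 6.53 FPKM, the membrane-type protease Mmp15 had 7.02 and 6.64, and the lysyl hydroxylase Plod1 had 5.85 and 5.16. The first 4 places were the same when mean CPM was divided by the exon length of GENCODE M21 in place of the authors' lengths, and Mmp15 and Plod1 changed places after them. The 4 TIMP genes together held 40.1% of the summed FPKM of the 58 genes in Cry2flox and 39.7% in Cry2scko, and the 22 MMP genes held 23.0% and 22.9%. Summed TIMP over summed MMP level was 1.74 in Cry2flox and 1.73 in Cry2scko. By reads, the lysyl oxidases were the only family whose share of the 58 genes' reads had intervals that did not overlap between libraries. Their share was 6.80% (exact 95% interval 6.40 to 7.21) in Cry2flox and 5.66% (5.24 to 6.11) in Cry2scko. Intervals of the other 5 families overlapped between libraries, which does not show equal shares. Among them the ADAMTS-like share was 7.38% (6.97 to 7.81) in Cry2flox and 8.11% (7.61 to 8.64) in Cry2scko.

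**Figure D3:**
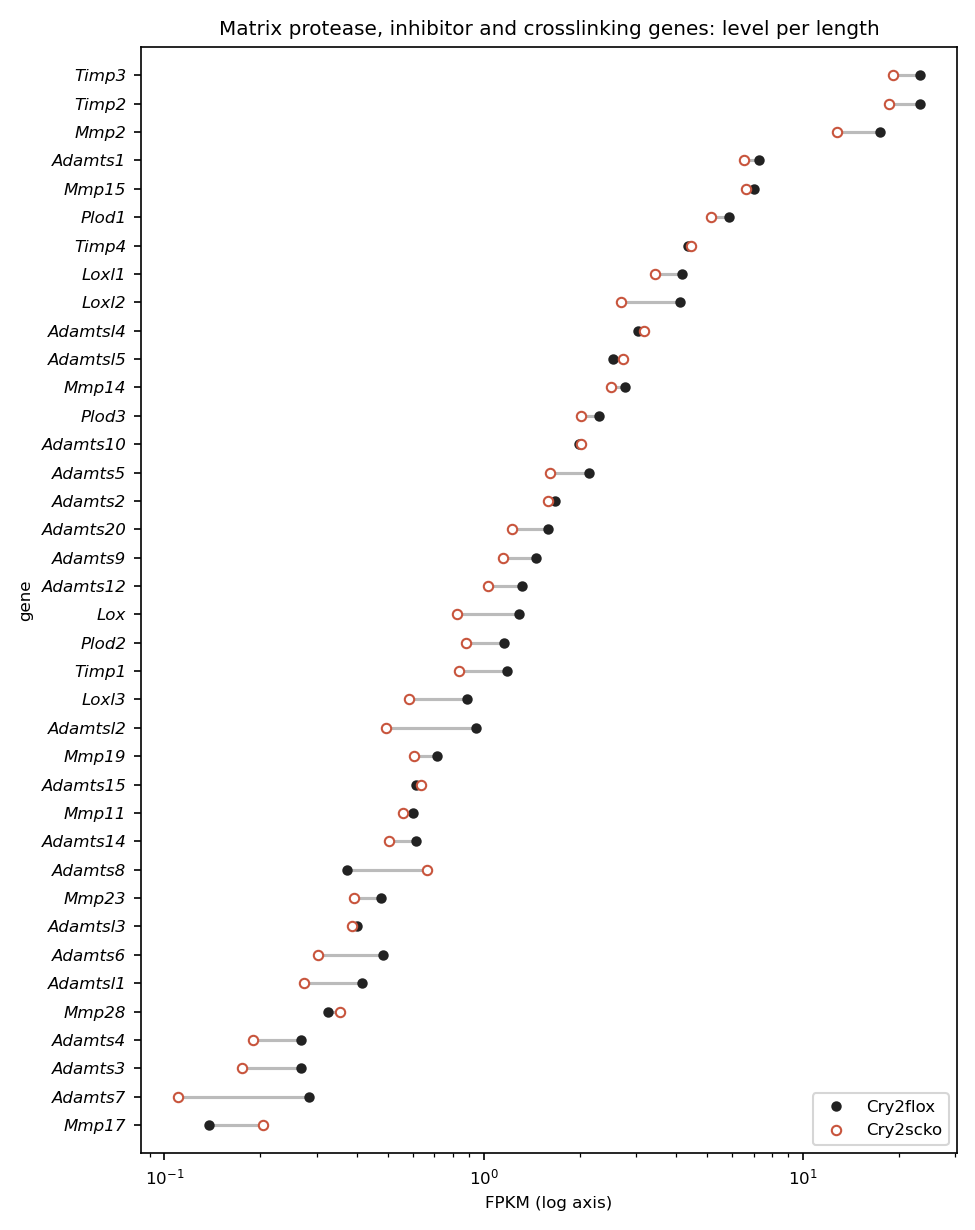
FPKM of each of the 38 genes in Cry2flox (filled) and Cry2scko (open) on a log axis, ordered by the mean of both. Timp3, Timp2 and Mmp2 lie highest, above 12 FPKM in both libraries, and Mmp17 lies lowest.

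Among the MMPs, Mmp2 had the most reads and the lowest ratio of the 8 that were compared. Mmp2 (ENSMUSG00000031740, chr8:92827291-92853420, plus strand) encodes a gelatinase that fibroblasts secrete as a proenzyme. It had 999 reads (53.2 CPM) in Cry2flox against 636 reads (38.5 CPM) in Cry2scko, a log2 ratio of -0.47 (-0.61 to -0.32). Its interval lay below equality and within 2-fold. Mmp14, the membrane-type protease that activates the Mmp2 proenzyme together with Timp2, had 302 and 238 reads and a log2 ratio of -0.16 (-0.41 to 0.09). The interval of Mmp14 included equality. Mmp15, a relative of Mmp14, had 577 and 474 reads at -0.10 (-0.28 to 0.08). Mmp17, a membrane-type protease held by a lipid anchor, had 18 and 23 reads at 0.53 (-0.42 to 1.51), so a difference was not detectable at this depth. The other 4 were Mmp11 (46 and 37 reads), Mmp19 (46 and 34), Mmp23 (32 and 23) and Mmp28 (37 and 35), with log2 ratios from -0.28 to 0.10 and intervals that all included equality. Mmp11 and Mmp19 share 5.58% and 22.3% of their exon bases with the opposite-strand genes Chchd10 and Tmem198b. Strand use in the counting is not given in the sources used here, so reads in those bases cannot be told apart. The MMP family as a whole had 0 of 8 past the 2-fold rule and a median log2 ratio of -0.14.

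The ADAMTS proteases spread most widely, from the lowest to the highest ratio of the 38 genes. Of 14 compared, 1 was lower by the 2-fold rule, against 1.51% of all genes, 0 were higher and 13 were neither. Their median log2 ratio was -0.36. Adamts7 (ENSMUSG00000032363, chr9:90163069-90208071, plus strand) encodes a protease that cuts cartilage oligomeric matrix protein, Comp. It had 62 reads (3.30 CPM) in Cry2flox against 21 reads (1.27 CPM) in Cry2scko, 2.56-fold lower with a log2 ratio of -1.36 (-2.17 to -0.64). The authors' FPKM values, 0.283 and 0.110, rest on the same reads and so gave the same fold. Adding 0.1 to values of that size brought the log2 ratio to -0.86, which does not reach 2-fold. Adamts7 shares 1.94% of its exon bases with the opposite-strand gene Tbc1d2b, which had 195 reads in each library. Adamts12, which is also known to cut Comp, had 155 and 106 reads at -0.36 (-0.74 to 0.00). Their substrate gene Comp, a tendon and cartilage gene, had 91 and 17 reads and a log2 ratio of -2.20. Summed tendon markers were 192 CPM in Cry2flox and 85.7 in Cry2scko, and their part in the Adamts7 ratio was not tested.

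Proteases that cut aggrecan and versican, the large proteoglycans, were mostly lower within 2-fold. Adamts1 had 867 reads in Cry2flox against 678 in Cry2scko, a log2 ratio of -0.17 (-0.32 to -0.02). Its neighbour Adamts5, an aggrecanase, lies 53059 bases away on chromosome 16 and had 328 and 214 reads at -0.43 (-0.69 to -0.18). Both intervals lay below equality and overlapped each other. Adamts9 had 483 and 330 reads at -0.37 (-0.57 to -0.16), and Adamts20 had 289 and 194 reads at -0.39 (-0.66 to -0.12). Adamts4 was read little, 26 and 16 reads at -0.50 (-1.51 to 0.44). Adamts8 (ENSMUSG00000031994, chr9:30942562-30963838, plus strand) lay on the other side of equality, with 42 reads (2.24 CPM) in Cry2flox against 65 reads (3.93 CPM) in Cry2scko. It was 1.75-fold higher, at a log2 ratio of 0.81 (0.23 to 1.41), and did not reach 2-fold. It shares 10.6% of its exon bases with the opposite-strand gene Gm29724, which was not analysed here. Adamts15, 20109 bases from Adamts8 on chromosome 9, had 69 and 62 reads at 0.03 (-0.49 to 0.54), so the intervals of these neighbours overlapped. Of the 7 genes in this group 0 passed the 2-fold rule. An interval below equality was found for 4 and above it for 1, against 17.3% and 16.3% of all genes.

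The procollagen N-proteinases, which remove the amino-terminal propeptide of fibrillar collagens, had no interval clear of equality. Adamts2, the main one for type I collagen, had 305 reads in Cry2flox against 252 in Cry2scko at -0.09 (-0.34 to 0.15). Adamts14 had 69 and 49 reads and Adamts3 had 28 and 16, with log2 ratios of -0.31 (-0.87 to 0.24) and -0.61 (-1.61 to 0.31). Their substrate genes Col1a1 and Col1a2 had log2 ratios of -1.13 and -0.99 between the same libraries. The interval of Adamts2 did not overlap that of Col1a1, -1.19 to -1.06. Adamts10, which binds fibrillin microfibrils, had 394 and 347 reads, a log2 ratio of 0.00 (-0.21 to 0.21), and its relative Adamts6 had 44 and 24 reads at -0.68 (-1.47 to 0.06).

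The 5 ADAMTS-like genes divided into a lower pair and 3 near equality. Adamtsl2 (ENSMUSG00000036040, chr2:27079379-27108981, plus strand) encodes a fibrillin-binding protein that limits TGF-beta availability. It had 171 reads (9.11 CPM) in Cry2flox against 78 reads (4.72 CPM) in Cry2scko, 1.92-fold lower at a log2 ratio of -0.94 (-1.35 to -0.55). Adamtsl1 had 122 and 70 reads at -0.61 (-1.06 to -0.18). Both missed the 2-fold rule with intervals below equality. Adamtsl4, which takes part in microfibril assembly, had 328 and 296 reads at 0.04 (-0.20 to 0.27). Adamtsl5 had 419 and 391 reads at 0.08 (-0.12 to 0.29), and Adamtsl3 had 74 and 62 reads at -0.07 (-0.58 to 0.43). The interval of Adamtsl2 did not overlap that of Adamtsl4 or Adamtsl5, so these family members differed between the libraries by unequal amounts beyond counting error.

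Inhibitors showed a similar division. Timp3 (ENSMUSG00000020044, chr10:86300372-86349506, plus strand), which binds to the matrix and also blocks ADAMTS and ADAM proteases, had 3968 reads (211 CPM) in Cry2flox against 2843 reads (172 CPM) in Cry2scko. Its log2 ratio was -0.30 (-0.37 to -0.23), a 1.23-fold lower level. Timp2 (ENSMUSG00000017466, chr11:118301069-118355740, minus strand), the partner of Mmp14 in activating Mmp2, had 1795 and 1253 reads at -0.34 (-0.44 to -0.23). The intervals of Timp2 and Timp3 overlapped. Timp4 (ENSMUSG00000030317), an inhibitor known from heart and muscle, had 515 and 457 reads and a log2 ratio of 0.01 (-0.17 to 0.20), an interval that did not overlap that of Timp2 or Timp3. Timp1, best known for its induction by injury and inflammation, had the fewest reads, 31 and 19, at -0.51 (-1.43 to 0.35), so a difference was not detectable at this depth. Timp3 shares 21.3% of its exon bases with the opposite-strand gene Syn3, which had 5 and 1 reads. By the 2-fold rule 0 of the 4 were called.

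Lysyl oxidases had the lowest median ratio of the 6 families. Loxl2 (ENSMUSG00000034205, chr14:69609068-69695834, plus strand) had 472 reads (25.1 CPM) in Cry2flox against 269 reads (16.3 CPM) in Cry2scko, a log2 ratio of -0.63 (-0.85 to -0.41). Lox, the founding lysyl oxidase of collagen and elastin, had 182 and 101 reads at -0.66 (-1.03 to -0.31). Loxl3 had 93 and 53 reads at -0.62 (-1.14 to -0.13), and Loxl1, the relative tied to elastic fibres, had 264 and 188 reads at -0.31 (-0.58 to -0.03). All 4 intervals lay below equality, against 17.3% of all genes, and overlapped each other. The median was -0.62 and 0 of the 4 passed the 2-fold rule. Loxl4 had 15 reads in each library and was not compared. Loxl3 shares 11.6% of its exon bases with the opposite-strand gene Htra2, which had 162 and 193 reads. Loxl2 has a copy, Gm21451, identical over 2348 aligned transcript bases, which had 0 reads in both libraries. How reads that match both genes were counted is not given in the sources used here, so the Loxl2 count may lack some of them.

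Lysyl hydroxylases lay closer to equality. Plod1 had 893 reads in Cry2flox against 684 in Cry2scko at -0.20 (-0.35 to -0.06). Plod2, which hydroxylates the telopeptide lysines of collagen, had 162 and 107 reads at -0.41 (-0.78 to -0.05). Plod3, which also adds glucose to hydroxylysine, had 307 and 234 reads at -0.21 (-0.46 to 0.04) and shares 11.7% of its exon bases with Znhit1. The 3 intervals overlapped, and 2 of them lay below equality, against 17.3% of all genes. The 8 fibroblast markers had a median log2 ratio of -0.41, between that of the lysyl hydroxylases (-0.21) and that of the lysyl oxidases (-0.62). That place depends on the collagen markers Col1a1, Col1a2 and Col3a1, at -1.13, -0.99 and -0.52. The other 5 ran from -0.59 (Lum) to -0.05 (Pi16), with Dcn in the middle at -0.21. The part of fibroblast or tendon cell content in these ratios was not tested.

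A cluster of MMP genes on chromosome 9 was nearly unread in both libraries. It spans chr9:7272514-7699585 and contains 9 of the 22 MMP genes, namely Mmp13, Mmp12, Mmp1b, Mmp3, Mmp10, Mmp8, Mmp27, Mmp20 and Mmp7. Together they had 4 reads in Cry2flox against 22 in Cry2scko, a log2 ratio of 2.51 (1.08 to 4.64). Mmp12, the elastase of macrophages, had 1 read in Cry2flox and 9 in Cry2scko, at 2.85 (0.50 to 8.81). Mmp8, the collagenase of neutrophils, had 0 and 8 reads, at least 3.03-fold higher where Cry2flox is set at the floor of 3 reads, before the counting error of its 8 reads. The lower limit of its counting interval was a log2 ratio of 0.95, a smaller difference. Mmp3, stromelysin 1, had 1 and 5 reads at 2.06 (-0.65 to 8.07), an interval that included equality. Mmp27 had 2 and 0 reads, and the 5 others had 0 reads in both. A count of 0 allows a level up to 0.160 CPM in Cry2flox or 0.181 CPM in Cry2scko. All 9 lay under a mean CPM of 1, so none could be called, and the cluster was grouped after these values were seen. Mmp9, a gelatinase of neutrophils and macrophages that lies outside the cluster, had 12 and 18 reads at 0.75 (-0.37 to 1.95).

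Markers of the cell types known for Mmp8 and Mmp12 were counted in the same libraries. The 8 neutrophil markers summed to 24 reads (1.28 CPM) in Cry2flox against 72 reads (4.35 CPM) in Cry2scko. S100a9 had 9 and 33 reads and was the only 1 of the 8 to reach a mean CPM of 1. The others were Ngp (7 and 16), S100a8 (7 and 10), Mpo (0 and 8), Retnlg (0 and 4), Camp (0 and 1), Ltf (1 and 0) and Ly6g (0 in both). Of the 7 macrophage markers 0 passed the 2-fold rule, with 1 interval above equality (Lyz2, 0.55) and 2 below it (C1qa, -0.45, and Mrc1, -0.39). The part of these cells in the reads of the cluster was not tested.

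**Figure D4:**
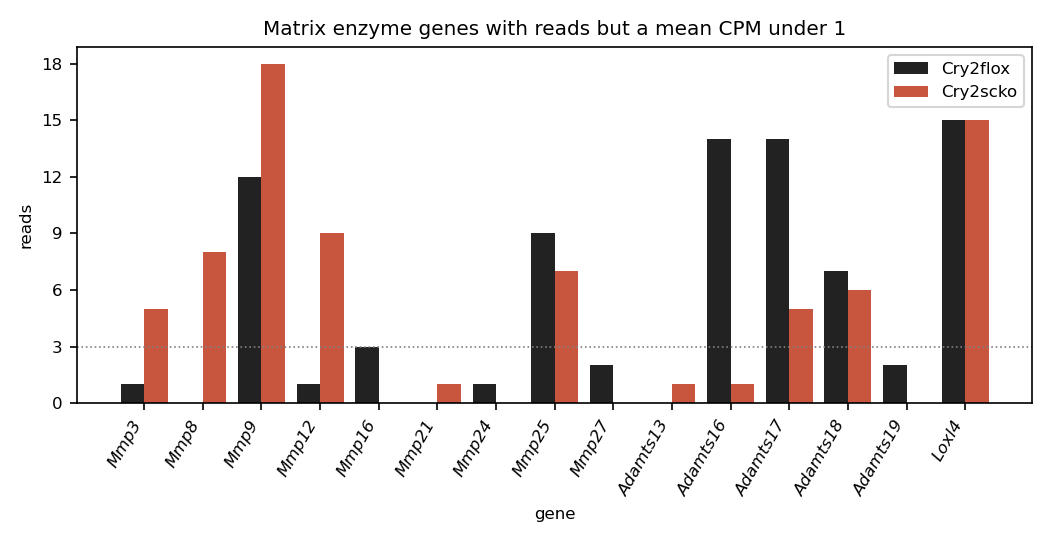
Reads in Cry2flox (black) and Cry2scko (red) for the 15 genes that had reads but a mean CPM under 1, with the floor of 3 reads as a dotted line. Mmp8, Mmp12 and Mmp3 stand higher in Cry2scko and Adamts16 and Adamts17 in Cry2flox, and the highest count is 18 reads.

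The cluster and the other genes also differed in promoter letters. RefSeq promoter windows on GRCm38.p6, from 250 bases before to 50 after a start site, matched 38 of the 58 genes. The AP-1 site (TGANTCA) is an element through which growth factors and inflammatory signals are known to induce MMP genes. On either strand it occurred in 7 of the 9 cluster genes and in 0 of the 29 other matched genes, against 7.81% of all 32851 windows. Mmp8 and Mmp27 were the cluster genes without it, and the unread Mmp13, Mmp1b, Mmp10, Mmp20 and Mmp7 all held it. A TATA box (TATAAA) occurred in 8 of the 9 and in 4 of the 29, against 13.6% of all windows. A gene was counted where any of its windows held the letters, and 2 of the 9 genes have several windows. By window, AP-1 letters occurred in 17.1% and TATA letters in 29.3% of the 41 windows of all matched genes. The E-box bound by clock factors (CACGTG) occurred in 1 of the 9, Mmp7, and in 1 of the 29, Adamts17, against 7.15% of windows. The cluster genes are related and share sequence, and a match describes letters only. The 150 bases before the start are printed for the 3 cluster genes with more reads in Cry2scko and for the unread Mmp13. Timp2 and Timp3 are printed for contrast, and motif matches are in capitals. Where a gene has several windows, the stretch with the most motif matches in these bases is printed.
Mmp3: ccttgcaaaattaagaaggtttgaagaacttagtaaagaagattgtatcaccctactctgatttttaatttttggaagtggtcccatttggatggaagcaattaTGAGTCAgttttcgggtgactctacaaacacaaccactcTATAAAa
Mmp12: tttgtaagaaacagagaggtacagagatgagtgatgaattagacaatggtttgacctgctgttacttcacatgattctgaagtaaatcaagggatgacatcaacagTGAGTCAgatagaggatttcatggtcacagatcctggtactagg
Mmp13: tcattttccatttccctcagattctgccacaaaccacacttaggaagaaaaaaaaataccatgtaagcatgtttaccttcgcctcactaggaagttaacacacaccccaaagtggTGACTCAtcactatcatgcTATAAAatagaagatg
Mmp8: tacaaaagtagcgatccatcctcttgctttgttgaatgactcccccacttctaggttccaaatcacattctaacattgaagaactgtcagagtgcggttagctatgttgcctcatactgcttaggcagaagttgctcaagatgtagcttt
Timp2: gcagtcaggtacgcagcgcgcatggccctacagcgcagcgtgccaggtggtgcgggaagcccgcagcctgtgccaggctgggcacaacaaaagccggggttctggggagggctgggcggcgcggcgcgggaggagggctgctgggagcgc
Timp3: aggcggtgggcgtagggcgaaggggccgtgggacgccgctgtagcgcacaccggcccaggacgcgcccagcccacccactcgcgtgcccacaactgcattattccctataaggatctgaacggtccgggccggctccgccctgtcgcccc
Of these, Mmp3, Mmp12 and Mmp13 hold the AP-1 letters close to the start used. The letters lie from 46 to 40 bases before it in Mmp3, 44 to 38 in Mmp12 and 35 to 29 in Mmp13. The start used for Mmp12 lies inside the gene as annotated in GENCODE M21, which begins at base 7344381. The stretch of Mmp8 holds none of the 3 motifs, and that of Mmp13, which had 0 reads, holds AP-1 and TATA letters. The TATA letters counted for Mmp8 and Mmp12 lie outside the printed bases, and Mmp27 was the cluster gene without TATA letters in its windows. The 4 MMP stretches were 35.3% to 42.7% G or C with 0 to 2 CpG pairs, and those of Timp2 and Timp3 were 73.3% and 70.7% with 14 and 17. The plus-strand stretches lie at chr9:7445672-7445821 for Mmp3, chr9:7347224-7347373 for Mmp12, chr9:7272364-7272513 for Mmp13, chr9:7558279-7558428 for Mmp8 and chr10:86300262-86300411 for Timp3. That of Timp2 lies at chr11:118355412-118355561 on the minus strand.

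The other 11 genes under the filter lay on both sides of equality. Adamts16 had 14 reads in Cry2flox against 1 in Cry2scko, a log2 ratio of -3.09 (-9.03 to -0.91). Adamts17 had 14 and 5 reads at -1.22 (-3.13 to 0.25), Adamts18 had 7 and 6, and Mmp25, a membrane-type protease of leukocytes, had 9 and 7. Mmp16, Mmp21, Mmp24, Adamts19 and Adamts13, the protease of von Willebrand factor, had 0 to 3 reads per library. Just inside the filter lay Mmp17 and Adamts4, at mean CPM of 1.17 and 1.18, and just outside it Mmp9 and Loxl4, at 0.864 and 0.853.

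Genes that work beside these enzymes were taken from 6 lists. Over all genes compared, 1.51% were lower and 3.37% higher by the 2-fold rule. Collagen propeptide removal had 4 of 4 compared genes below equality, 0 past the 2-fold rule and a median log2 ratio of -0.74. Pcolce, the enhancer of the procollagen C-proteinase, had 701 reads in Cry2flox against 365 in Cry2scko at -0.76 (-0.94 to -0.57). Its relative Pcolce2 was at -0.83 (-1.44 to -0.26), and Tll1, a tolloid protease, had 38 and 20 reads at -0.73 (-1.60 to 0.07). The C-proteinase itself, Bmp1, had 638 and 474 reads at -0.25 (-0.42 to -0.07), an interval that did not overlap that of Pcolce. Collagen hydroxylases and chaperones had 1 of 13 lower, 0 higher and a median of -0.17. P3h3, which works with Plod1 in collagen lysine hydroxylation, was the lower one with 158 and 56 reads at -1.31 (-1.78 to -0.86). Its relative P3h2 had 68 and 112 reads at 0.90 (0.46 to 1.36).

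Protease activators and other inhibitors had 2 of 9 lower, against 1.51% of all genes, 0 higher and a median of -0.13. Pcsk5, a proprotein convertase and 1 of the lower genes, had 85 and 33 reads at -1.17 (-1.81 to -0.59). Furin, the convertase that activates membrane-type MMPs, had 694 and 600 reads at -0.03 (-0.19 to 0.13). Microfibril, elastin and proteoglycan genes had a median of -0.18, and 0 of the 11 passed the rule. Among them fibronectin, Fn1, was at -0.70 (-0.82 to -0.58), Efemp2, which tethers Lox to elastin, at -0.50 (-1.01 to -0.02) and Fbln1 at -0.48 (-1.05 to 0.07). ADAM sheddases had a median of 0.11, and 0 of the 8 passed the rule. Adam17, which sheds cytokines and growth factors, was at 0.30 (0.11 to 0.49), Adam8 at 0.38 (-0.32 to 1.09) and Adam33 at -0.24 (-0.59 to 0.12). The transglutaminases Tgm2 and F13a1, which crosslink proteins by another chemistry, were both at 0.01, with 1982 and 1758 reads for Tgm2. The interval of Tgm2, -0.08 to 0.10, did not overlap that of Lox, Loxl2 or Loxl3. It did overlap that of Loxl1, -0.58 to -0.03.

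**Figure D5:**
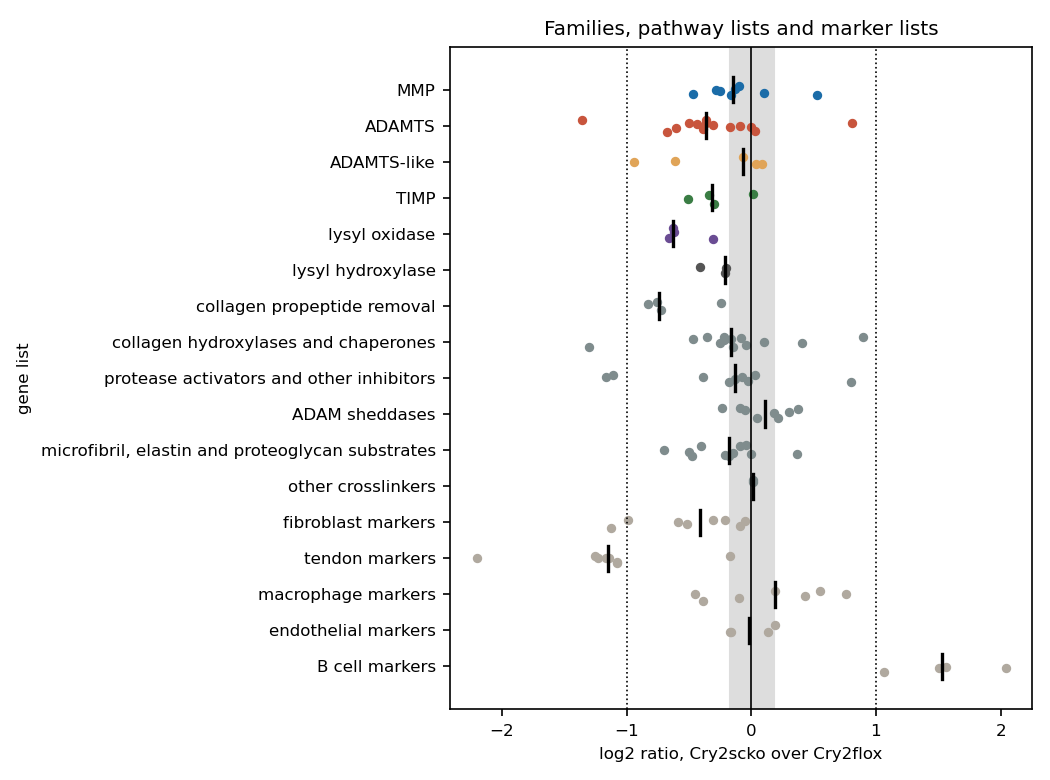
Log2 ratio of Cry2scko over Cry2flox for each compared gene of the 6 families and 6 neighbouring lists. The fibroblast, tendon, macrophage, endothelial and B cell marker lists are also drawn, and the other marker lists are not. Black bars mark the medians, grey shading the range between the quartiles of all genes and dotted lines 2-fold. Lysyl oxidases (median -0.62) and propeptide removal genes (-0.74) lie left of equality, tendon markers lie farther left (-1.15), and ADAM sheddases (0.11) lie right of it.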

How the data were processed

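RNA-seq of gastrocnemius gave 1 library per genotype. Read counts per gene were deposited by the authors unnormalized in a table of 34745 Ensembl genes, and FPKM values were deposited by the authors for the same genes. CASAVA, HISAT2 2.0.4, StringTie 1.3.0 and GRCm38 are named in the submitters' processing notes. The read counter, the annotation release and strand use are not given in the sources used here. Names came from GENCODE M21, which named 34344 IDs. The sample columns of both tables matched, since all 16284 genes with reads in both libraries gave the same implied length, within 0.1%.

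Counts were scaled with edgeR 4.0.16 (TMM, factors 0.993 and 1.01) in R 4.3.3. The log2 ratio is of scaled counts with 0.5 reads added, and its 95% interval comes from the Clopper-Pearson limits on how a gene's reads split between the libraries (Python 3.11.15, scipy 1.17.1, numpy 2.4.6, pandas 2.3.3, matplotlib 3.10.9). A gene was compared at a mean CPM of 1 or more, and called at 2-fold with an interval clear of equality. The method was tested on simulated counts that held counting error only, so that test says nothing about spread between animals. No test between genotypes was possible with 1 library each.

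Genes named were Cry2, all members compared, members under the filter with reads and, of each list, the called genes or otherwise the 3 with the largest absolute ratio. Bmp1, P3h2, Furin, Comp, Col1a1, Col1a2, F13a1, the chromosome 9 cluster and the division of marker sums were added after their values were seen. Of the called genes in the lists, 1 is not reported here by name. The members and lists were chosen with earlier results of these data known. The zinc site was sought in GENCODE coding sequences in place of RefSeq proteins, which were not used here. Near-identical transcripts were sought with BLAST 2.17.0 (at least 97% identity over 100 bases). Alternatives were scaling by DESeq2 1.42.0 size factors, by total counts and by totals without mitochondrially encoded and the top 20 genes, FPKM with 0.1 added, 5 reads added, no filter, a mean CPM of 5, a 1.5-fold threshold and, chosen after seeing the data, leaving out members that share exon bases with another gene.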

Additional observations from a re-analysis of the deposited data

How the results depend on the processing

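The median log2 ratio of the members compared was -0.30 and lay between -0.31 (DESeq2 size factors) and -0.26 (FPKM with 0.1 added) under the 8 alternatives that can move it. With no filter 2 genes were lower (Adamts16 and Adamts7) and 2 higher (Mmp8 and Mmp12), on few reads. At 1.5-fold 6 were lower (Adamts7, Adamtsl1, Adamtsl2, Lox, Loxl2 and Loxl3) and 1 higher (Adamts8). None were lower, a count of 0 in place of 1, with FPKM plus 0.1, at a mean CPM of 5, which 23 members reached, or without members that share exon bases, which leaves out Adamts7 and keeps 24. Over all genes 626 were called, against 1185 with no filter, 251 at a mean CPM of 5 and 1400 at 1.5-fold. None of the 38 members' ratios left its counting interval under another scaling or added count, and Adamts7 ranged from -1.36 to -0.86. Leaving out a replicate was not possible with 1 library per genotype. No paired analysis was possible because each genotype has 1 library. Depth limits genes such as Mmp17 and Timp1, whose intervals span more than 1 log2 unit.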
